A study of Mus musculus with 6 samples.

Results

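Wnt ligands, their receptors and their secreted modulators were followed in primary mouse hepatic stellate cells, the liver pericytes that store vitamin A, after a pulse of forskolin. Members were the rows of the deposited gene table whose symbol begins with Wnt or Fzd and a digit, is one of Dkk1 to Dkk4, Sfrp1 to Sfrp5, Rspo1 to Rspo4 or Lgr4 to Lgr6, or is Lrp5, Lrp6, Axin2, Wif1, Znrf3, Rnf43, Tcf7 or Lef1. That rule uses names alone and gave 52 of 24940 genes.

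Polyadenylated RNA was sequenced from cells of wild-type female C57BL/6JBomTac mice, whose age the labels do not give, in 2 groups of 3 libraries, each with the replicate letters A, B and C. In the Fsk group, forskolin was added at 5 µM on cells isolated 2 days before; this plant compound raises cyclic AMP by activating adenylyl cyclase. In the Ctrl group, cells of the same strain and age in culture received the same volume of the solvent dimethyl sulfoxide (1:1000). In both groups the medium was replaced after 3 h and RNA was taken 21 h later, at 24 h. The labels do not say whether the letters stand for separate animals or cultures, so p-values reflect only how far the libraries vary, which may be technical variation.

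Total counts were 10890193 to 12954310 in the Fsk libraries and 13001358 to 15090262.5 in the Ctrl libraries. All 18 stellate cell markers examined were counted well enough to test, with a summed level of 6239 to 6510 CPM, the library-scaled count, with Fsk and 6536 to 6891 CPM with Ctrl. Of these 18, 7 rose and 9 fell by edgeR, where 24.8% of all tested genes rose and 25.1% fell. Among the stellate markers that changed were the growth factor gene Hgf at 401 CPM with Fsk and 198 CPM with Ctrl, and the filament gene Des (desmin) at 182 CPM with Fsk and 323 CPM with Ctrl. The largest change in that list was a fall of Tcf21, at 27.3 CPM with Fsk and 106 CPM with Ctrl. Lrat neither rose nor fell by edgeR, at 51.9 CPM with Fsk and 55.0 CPM with Ctrl. Markers of liver sinusoidal endothelium, a liver cell type that also makes Wnt ligands and R-spondin, summed to 128 to 133 CPM with Fsk and 261 to 270 CPM with Ctrl. Most of that sum was Flt4, at 79.7 CPM with Fsk and 195 CPM with Ctrl. In both groups 7 of the 17 markers were below 1 CPM, among them the defining endothelial genes Pecam1 and Cdh5, and Emcn was at 0. Of 10 tested markers in that list 1 rose, Stab2 at 2.53 CPM with Fsk and 0.955 CPM with Ctrl. The 5 that fell were Flt4, Flt1, Kdr, Tek and Lyve1, with Flt1 at 8.54 CPM with Fsk and 27.9 CPM with Ctrl. Macrophage markers summed to 39.7 to 39.9 CPM with Fsk and 35.9 to 37.7 CPM with Ctrl, 13 of 16 being under 1 CPM and Marco at 0. The 3 tested were Cd68 and Csf1r, which rose, and Lyz2, which fell (4.22 CPM with Fsk and 10.9 CPM with Ctrl). Hepatocyte markers summed to 361 to 444 CPM with Fsk and 304 to 317 CPM with Ctrl, nearly all of it Trf and Ass1, with Alb near 0 and Serpina1a, Serpina1c, Cyp3a11, Fgb and Fga at 0. Cholangiocyte markers summed to 393 to 429 CPM with Fsk and 139 to 153 CPM with Ctrl, nearly all of it Spp1 (372 CPM with Fsk and 72.5 CPM with Ctrl) and Krt19 (35.1 CPM with Fsk and 71.3 CPM with Ctrl). Portal fibroblast and mesothelial markers summed to 513 to 542 CPM with Fsk and 586 to 604 CPM with Ctrl, most of it Fbln2, with Gpm6a at 0. Of 8 tested markers in that list 2 rose, Thy1 at 4.95 CPM with Fsk and 0.650 CPM with Ctrl and Cd34 at 19.6 CPM with Fsk and 3.86 CPM with Ctrl, and 2 fell, Fbln2 and Lrrn4, with Lrrn4 at 0.507 CPM with Fsk and 3.89 CPM with Ctrl. Smooth muscle markers summed to 389 to 462 CPM with Fsk and 490 to 511 CPM with Ctrl, the largest part being Smtn. In that list 8 were tested, of which 1 rose (Mustn1) and 6 fell. Cnn1 was at 15.4 CPM with Fsk and 32.1 CPM with Ctrl. The part that other cells have in the results below was not tested. In bulk RNA, fewer cells of a type and less RNA per cell cannot be told apart.

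Wnt proteins are secreted lipid-modified ligands that bind Frizzled receptors. With the co-receptors Lrp5 or Lrp6 they stabilise β-catenin, which acts with TCF/LEF proteins on target genes, and with other partners they direct cell polarity and movement. Secreted Dkk, Sfrp and Wif proteins restrain the pathway, while R-spondins, through Lgr4 to Lgr6, remove the ligases Znrf3 and Rnf43 that clear Frizzled receptors from the surface. In the liver, Wnt and R-spondin signals sustain the pericentral gene programme of hepatocytes, and stellate cells are among their sources.

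After the forskolin pulse, the ligand genes Wnt11 and Wnt4, the Wnt-binding antagonist gene Sfrp1 and the agonist gene Rspo3 stood higher, while Wnt5a, the antagonist gene Dkk2, the receptor gene Fzd5 and the co-receptor gene Lrp5 stood lower. Of the 52 members, 27 had enough counts to be tested and 19 of these (70.4%) passed an adjusted p of 0.05 by edgeR's quasi-likelihood test with Benjamini-Hochberg adjustment, beside 49.9% of all 13357 genes tested. Of the 27, 6 rose, where 24.8% of all tested genes rose, and 13 fell, where 25.1% of all tested genes fell. At least a 2-fold change beside that threshold was seen for 4 members (Wnt11, Wnt4, Sfrp1 and Dkk2), against 6.62% of all tested genes. The Fsk and Ctrl libraries did not overlap in level for 21 of the 27, against 57.3% of all tested genes. Tested against a 1.5-fold change in place of no change, 6 members passed (Wnt11, Wnt4, Sfrp1, Rspo3, Fzd5 and Dkk2), beside 1000 of all 13357 genes tested. The median log2 fold change of the 27, forskolin over vehicle as everywhere below, was -0.20, beside 0.01 over all tested genes.

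**Figure D1:**
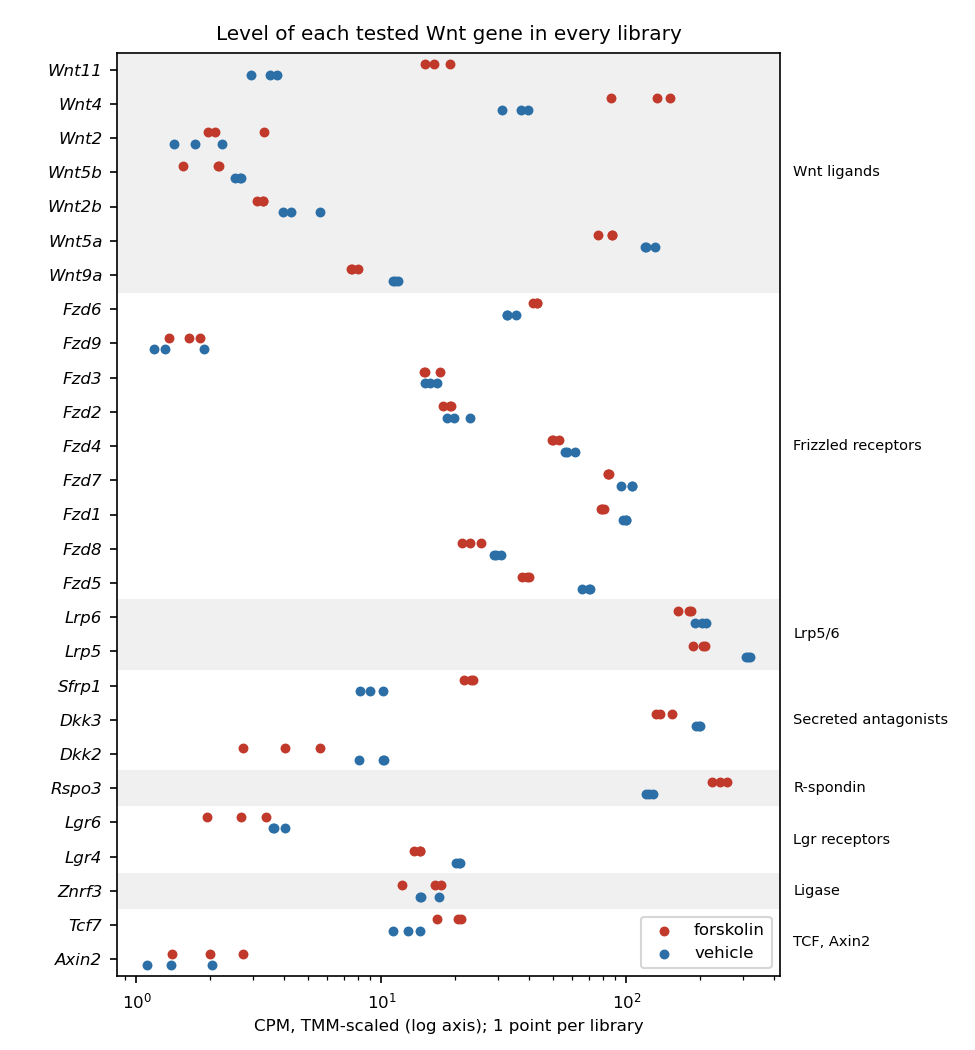
Level of each of the 27 tested Wnt genes in every library, in CPM on a log axis, grouped by role, with 1 point per library (Fsk in red, Ctrl in blue; points may overlap). Wnt11, Wnt4, Sfrp1 and Rspo3 lie higher in all 3 Fsk libraries, and Fzd5, Lrp5, Wnt5a and Dkk2 lie lower in all 3 Fsk libraries.

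The stretch before the transcript start is shown for the ligand genes that rose and for the receptor and antagonist genes that fell most, as the members with the clearest changes for which RefSeq gave a promoter window (build GRCm38.p6, 250 bases before to 50 bases after the start). Of the 27 tested members 16 had such a window. Capitals mark 2 motifs that were looked for on both strands, TGACG, a core of the cyclic AMP response element, and CTTTGAT, a core bound by TCF/LEF proteins. The 250 bases before the start are printed 5′ to 3′ on the gene's strand, from chr7:98834862-98835111 (plus) for Wnt11, chr4:137277385-137277634 (plus) for Wnt4, chr1:64737751-64738000 (minus) for Fzd5 and chr3:132085042-132085291 (plus) for Dkk2.

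Wnt11: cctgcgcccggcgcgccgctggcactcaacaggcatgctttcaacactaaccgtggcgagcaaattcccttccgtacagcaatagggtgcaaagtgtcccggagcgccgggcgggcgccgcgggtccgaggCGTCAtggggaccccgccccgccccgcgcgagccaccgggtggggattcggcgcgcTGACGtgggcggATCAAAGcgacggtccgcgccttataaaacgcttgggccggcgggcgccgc

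Wnt4: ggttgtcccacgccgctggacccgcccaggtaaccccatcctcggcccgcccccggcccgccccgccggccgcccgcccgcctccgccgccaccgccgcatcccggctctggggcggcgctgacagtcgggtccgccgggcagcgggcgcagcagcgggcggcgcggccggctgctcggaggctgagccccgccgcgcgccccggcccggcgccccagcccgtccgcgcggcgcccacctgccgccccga

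Fzd5: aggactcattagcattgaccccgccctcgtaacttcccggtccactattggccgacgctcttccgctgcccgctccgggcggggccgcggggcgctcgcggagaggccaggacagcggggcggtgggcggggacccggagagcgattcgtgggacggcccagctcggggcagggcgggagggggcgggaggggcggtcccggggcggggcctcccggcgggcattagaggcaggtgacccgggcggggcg

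Dkk2: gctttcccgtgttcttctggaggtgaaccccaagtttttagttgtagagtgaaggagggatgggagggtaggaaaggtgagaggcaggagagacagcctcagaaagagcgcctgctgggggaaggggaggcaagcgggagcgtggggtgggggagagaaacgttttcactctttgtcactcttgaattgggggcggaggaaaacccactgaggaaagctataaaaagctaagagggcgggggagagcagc

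In the Wnt11 window TGACG lay 119 bases (reverse strand) and 63 bases (forward strand) before the start, and CTTTGAT lay 51 bases before it on the reverse strand. Reverse-strand matches appear in the printed strand as CGTCA and ATCAAAG. Over all 32851 mouse windows of this length (300 bases), TGACG occurred in 20.8% and CTTTGAT in 3.73%, and the full palindrome TGACGTCA, which contains TGACG, in 1.79%. Of the members with a window, 3 had risen (Wnt11, Wnt4 and Tcf7), 8 had fallen and 5 did not pass the test. Wnt11 alone among these 16 held TGACG or CTTTGAT in the window searched, and none held TGACGTCA. Wnt11, Wnt5b and Tcf7 had further windows at other starts, and only the window nearest the start of the deposited transcript was searched. A match is a run of letters and not a known binding site, and a window without one says only that those letters are not in it.

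Among the 19 ligand genes, 7 were tested, of which 2 rose and 3 fell, where 24.8% of all tested genes rose and 25.1% fell. Wnt11, a ligand best known for polarity and cell movement signalling (chromosome 7, 98835112 to 98854747, plus strand, mm10), was at 16.4, 15 and 19 CPM in Fsk A, B and C, against 3.51, 2.95 and 3.74 CPM in Ctrl A, B and C. The groups were far apart, every Fsk library lying above every Ctrl library by several fold. Wnt11 averaged 16.8 ± 2.01 CPM with Fsk and 3.40 ± 0.407 CPM with Ctrl (SD, n = 3 each), a ratio of 4.95 and a log2 fold change of 2.30 with SE 0.152 (edgeR adjusted p = 5.41e-10). By size of fold it ranked 71 among the 3319 genes that rose. Of the exon bases of Wnt11, 8.80% overlap Gm8398 on the opposite strand and 92.5% of its 50-base stretches occur in no other gene, and since the labels' protocol does not state that strand was kept, reads from the overlap cannot be assigned to either gene.

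Wnt4, a ligand known for kidney tubule formation and development of the female reproductive tract (chromosome 4, 137277635 to 137299501, plus strand), was at 86.2, 133 and 150 CPM in Fsk A, B and C, against 31.0, 39.7 and 37.2 CPM in Ctrl A, B and C. Fsk A was the lowest of its group and still well above the highest Ctrl library. Wnt4 averaged 123 ± 33.1 CPM with Fsk and 36.0 ± 4.44 CPM with Ctrl, a ratio of 3.43 and a log2 fold change of 1.78 with SE 0.141 (edgeR adjusted p = 6.21e-09), which ranked 121 among the genes that rose. Per kilobase of exon its level exceeded that of 75.9% of tested genes with Fsk and 44.2% with Ctrl.

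Wnt5a, the leading ligand of β-catenin-independent signalling (chromosome 14, 28505473 to 28527447, plus strand), moved the other way, at 87.1, 76.7 and 87.0 CPM in Fsk A, B and C, against 120, 130 and 119 CPM in Ctrl A, B and C. All Fsk libraries lay below all Ctrl libraries. The log2 fold change was -0.56 (SE 0.0568, edgeR adjusted p = 1.76e-07). Overlap with Gm2670 on the opposite strand covers 4.58% of the exon bases of Wnt5a.

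Wnt9a, a ligand with roles in joint and blood stem cell development, fell by 0.56 on the log2 scale (edgeR adjusted p = 0.00116), with 7.56, 7.48 and 8.05 CPM in Fsk A, B and C, against 11.1, 11.4 and 11.7 CPM in Ctrl A, B and C. The spread within each group was small beside the gap between groups. Wnt2b, a relative of Wnt2, was at 3.28, 3.10 and 3.29 CPM in Fsk A, B and C, against 4.28, 3.95 and 5.59 CPM in Ctrl A, B and C, a log2 fold change of -0.51 that only just passed (edgeR adjusted p = 0.0447). That call was lost in 9 of 15 other ways of processing the data. Wnt5b, the close relative of Wnt5a, was at 1.96 ± 0.356 CPM with Fsk and 2.62 ± 0.0865 CPM with Ctrl, a log2 fold change of -0.43 that did not pass (edgeR adjusted p = 0.158) although the groups did not overlap. Wnt2, in liver chiefly an endothelial ligand, was at 2.46 ± 0.753 CPM with Fsk and 1.80 ± 0.417 CPM with Ctrl, with a log2 fold change of 0.41 and overlapping groups (edgeR adjusted p = 0.244). The endothelial genes Pecam1 and Cdh5 averaged 0.412 and 0.433 CPM with Fsk, and 0.379 and 0.375 CPM with Ctrl, too low to be tested. Of the 17 endothelial markers 10 were tested, of which 1 rose and 5 fell, where 24.8% of all tested genes rose and 25.1% fell. The part of endothelial cells in the Wnt2 level was not tested.

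Levels of different ligand genes were set side by side as CPM per kilobase of exon. Summed over all 19 ligand genes, that level was 47.1, 57.8 and 66.0 in Fsk A, B and C, against 35.6, 39.7 and 37.1 in Ctrl A, B and C, so every Fsk library held more ligand message than any Ctrl library. Wnt4 made up 48.0%, 60.5% and 59.6% of the sum in Fsk A, B and C, against 22.8%, 26.2% and 26.3% in Ctrl A, B and C. Wnt5a made up 29.5%, 21.1% and 21.0% in Fsk A, B and C, against 53.5%, 52.3% and 51.3% in Ctrl A, B and C. The leading ligand message was thus Wnt4 in each Fsk library and Wnt5a in each Ctrl library. The ratio of Wnt4 to Wnt5a per kilobase was 1.63, 2.86 and 2.84 in Fsk A, B and C, against 0.427, 0.501 and 0.513 in Ctrl A, B and C. The Wnt11 share averaged 9.91% with Fsk and 3.03% with Ctrl, and the Wnt9a share 4.15% with Fsk and 9.18% with Ctrl. These sums and shares are descriptions and were not tested.

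**Figure D2:**
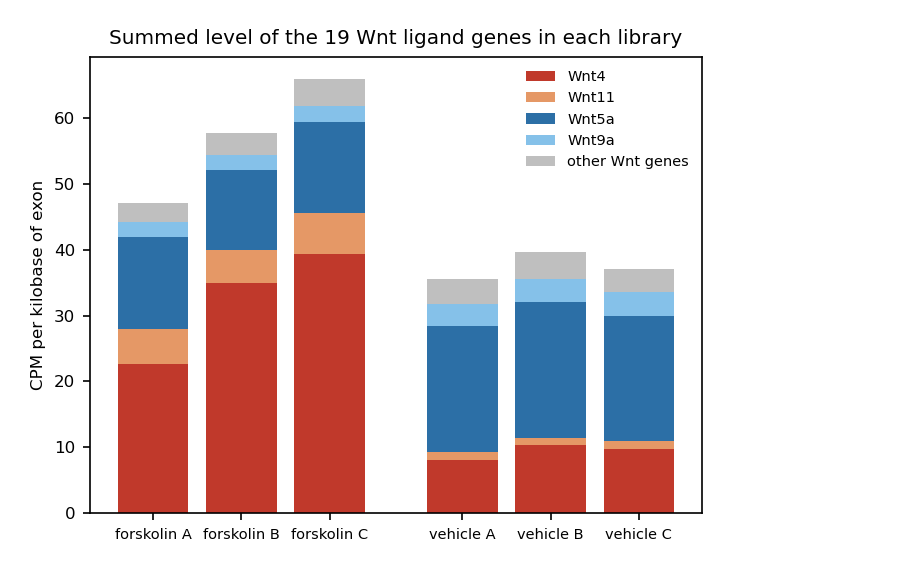
Summed level of the 19 Wnt ligand genes in each library, in CPM per kilobase of exon, as stacked bars, with the Fsk (forskolin) libraries on the left and the Ctrl (vehicle) libraries on the right. Wnt4 is the largest segment in each Fsk library (48.0% to 60.5% of the bar) and Wnt5a in each Ctrl library (51.3% to 53.5%).

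The other 12 ligand genes were counted too rarely to be tested. Wnt7a reached 23 counts and Wnt6 13.5 counts in their highest library. Wnt10b reached 5 counts, Wnt7b, Wnt8b and Wnt9b 3, Wnt1 2, Wnt10a, Wnt16, Wnt3a and Wnt8a 1, and Wnt3 0.5. Over the 3 libraries of each group, Wnt7a had 20 counts with Fsk and 38.5 with Ctrl, Wnt6 had 10 with Fsk and 21.5 with Ctrl, and Wnt10b had 11.5 with Fsk and 2.5 with Ctrl. At this depth no change could be measured for these genes.

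Of 10 Frizzled receptor genes, 9 were tested, of which 1 rose and 5 fell, where 24.8% of all tested genes rose and 25.1% fell. Fzd5 (chromosome 1, 64730558 to 64737750, minus strand), a receptor that can bind Wnt5a, was at 40.2, 39.4 and 37.3 CPM in Fsk A, B and C, against 70.8, 70.4 and 66.1 CPM in Ctrl A, B and C. No Fsk library came near the Ctrl range. The log2 fold change was -0.83 (SE 0.0608, edgeR adjusted p = 2.37e-09), the lowest of the 9 receptors. The exons of Fzd5 overlap Gm38058 on the opposite strand over 17.8% of their bases, and 83.6% of its 50-base stretches occur in no other gene. How many of its counts come from the overlap was not measured.

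Its nearest relative Fzd8 was at 21.4, 25.4 and 22.9 CPM in Fsk A, B and C, against 30.7, 29.4 and 28.7 CPM in Ctrl A, B and C, a log2 fold change of -0.35 (edgeR adjusted p = 0.00237). Fzd1 was at 78.6, 81.0 and 79.7 CPM in Fsk A, B and C, against 99.3, 99.8 and 96.4 CPM in Ctrl A, B and C, a log2 fold change of -0.30 (edgeR adjusted p = 3.66e-05). Fzd7, of the same subfamily as Fzd1 and Fzd2, was at 84.0, 84.7 and 83.7 CPM in Fsk A, B and C, against 95.4, 105 and 105 CPM in Ctrl A, B and C, a log2 fold change of -0.28 (edgeR adjusted p = 2.19e-04). In all 3 receptors the groups did not overlap, and the changes were well under 1.5-fold. Fzd4, which also binds Norrin, was at 49.5, 50 and 52.9 CPM in Fsk A, B and C, against 57.2, 61.6 and 56.1 CPM in Ctrl A, B and C, a log2 fold change of -0.20 (edgeR adjusted p = 0.0113). The call for Fzd4 was lost without Ctrl B, and those for Fzd4 and Fzd8 were lost when library size entered the fit.

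Fzd6, a receptor of the polarity branch, was the Frizzled gene that rose. Its level was 43.1, 43.2 and 41.4 CPM in Fsk A, B and C, against 35.3, 32.6 and 32.6 CPM in Ctrl A, B and C, groups that lay apart, with a log2 fold change of 0.35 with SE 0.0685 (edgeR adjusted p = 3.92e-04). Fzd3, its relative in polarity signalling, was at 15.7 ± 1.33 CPM with Fsk and 15.9 ± 0.878 CPM with Ctrl (log2 fold change -0.02, edgeR adjusted p = 0.914). Fzd2 was at 18.7 ± 0.746 CPM with Fsk and 20.5 ± 2.33 CPM with Ctrl (log2 fold change -0.14, edgeR adjusted p = 0.267). Fzd9 was at 1.60 ± 0.231 CPM with Fsk and 1.46 ± 0.374 CPM with Ctrl (log2 fold change 0.10, edgeR adjusted p = 0.797). Each of these 3 genes had overlapping groups, and Fzd10 was not tested, with at most 4 counts in a library.

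Per kilobase of exon the Frizzled genes summed to 79.1, 80.7 and 79.6 CPM in Fsk A, B and C, against 93.5, 96.7 and 92.6 CPM in Ctrl A, B and C. All Fsk libraries held less receptor message than any Ctrl library. The order of levels per kilobase with Fsk was Fzd1 at 18.2, Fzd7 at 17.5, Fzd4 at 13.8, Fzd6 at 10.4, Fzd8 at 6.95, Fzd5 at 5.64, Fzd2 at 5.16, Fzd3 at 1.24 and Fzd9 at 0.761. With Ctrl it was Fzd1 at 22.5, Fzd7 at 21.2, Fzd4 at 15.8, Fzd5 at 10, Fzd8 at 8.86, Fzd6 at 8.23, Fzd2 at 5.65, Fzd3 at 1.25 and Fzd9 at 0.691. The places of Fzd5 and Fzd6 were thus exchanged, Fzd6 holding 13.1% ± 0.302 of the receptor sum with Fsk and 8.74% ± 0.50 with Ctrl, and Fzd5 7.07% ± 0.284 with Fsk and 10.6% ± 0.319 with Ctrl (SD, n = 3 each).

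Both co-receptor genes of the β-catenin branch fell. Lrp5 (chromosome 19, 3584825 to 3686564, minus strand) was at 186, 205 and 209 CPM in Fsk A, B and C, against 309, 319 and 314 CPM in Ctrl A, B and C. The groups were well separated, and the log2 fold change was -0.65 (SE 0.0460, edgeR adjusted p = 1.44e-09). Lrp6, its close relative, was at 184, 180 and 162 CPM in Fsk A, B and C, against 191, 203 and 211 CPM in Ctrl A, B and C, groups that came near each other but did not overlap. Its log2 fold change was -0.20 (SE 0.0511, edgeR adjusted p = 0.00306). Per kilobase, Lrp5 made up 67.4% ± 2.64 of the Lrp5 and Lrp6 sum with Fsk and 73.9% ± 0.808 with Ctrl.

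Of 9 secreted antagonist genes among the members, 3 were tested, and all 3 passed, 1 upward and 2 downward. Over all tested genes 49.9% passed, 24.8% upward and 25.1% downward. Sfrp1, which binds Wnt proteins outside the cell (chromosome 8, 23411502 to 23449632, plus strand), was at 23.2, 23.7 and 21.8 CPM in Fsk A, B and C, against 8.19, 8.98 and 10.2 CPM in Ctrl A, B and C. Every Fsk library was well above every Ctrl library. The ratio was 2.51 and the log2 fold change 1.33 (SE 0.110, edgeR adjusted p = 1.17e-08).

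Dkk2, which binds Lrp5 and Lrp6 (chromosome 3, 132085292 to 132180304, plus strand), was at 5.6, 2.72 and 4.03 CPM in Fsk A, B and C, against 10.2, 10.2 and 8.11 CPM in Ctrl A, B and C. The Fsk libraries differed among themselves about 2-fold, and all lay below the Ctrl range. The log2 fold change was -1.23 (SE 0.201, edgeR adjusted p = 5.91e-05), with the value between -1.50 without Fsk A and -0.98 without Fsk B. Dkk3, a divergent family member that is not a classical inhibitor of Lrp6 (chromosome 7, 112116019 to 112159131, minus strand), was at 131, 137 and 153 CPM in Fsk A, B and C, against 192, 198 and 199 CPM in Ctrl A, B and C. It was lower in every Fsk library, with a log2 fold change of -0.48 with SE 0.0514 (edgeR adjusted p = 3.58e-07).

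Per kilobase, Dkk3 held most of the message of the 9 antagonist members in both groups, 85.8% ± 1.52 with Fsk and 92% ± 0.460 with Ctrl. The Sfrp1 share was 11% ± 1.11 with Fsk and 3.34% ± 0.325 with Ctrl. The sum of these 9 genes fell short of Ctrl in each Fsk library. It was 45.5, 46.8 and 51.3 CPM per kilobase in Fsk A, B and C, against 61.2, 63.1 and 62.9 in Ctrl A, B and C. That sum mainly followed Dkk3, at 41.1 CPM per kilobase with Fsk and 57.4 with Ctrl. Dkk2 was at 1.11 with Fsk and 2.57 with Ctrl, while Sfrp1 was higher, at 5.24 with Fsk and 2.09 with Ctrl. Frzb, a secreted Wnt antagonist outside the membership rule, is not in this sum and was named after its values were seen. It stood higher than Dkk3, at 176 ± 8.98 CPM per kilobase with Fsk and 168 ± 4.14 with Ctrl. Its log2 fold change of 0.07 did not pass (edgeR adjusted p = 0.207). The other antagonist members were not tested. Sfrp2 had 1.5, 11 and 10 counts in Fsk A, B and C, against 6, 3 and 3 counts in Ctrl A, B and C, and Dkk1 reached at most 10 counts, Dkk4 and Sfrp4 3, and Sfrp5 2. Wif1 was at 0 in all 6 libraries, which allows up to 0.273 CPM in the shallowest library and 0.201 CPM in the deepest (3 counts per library, counting error only).

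Rspo3 was the R-spondin of these cells (chromosome 10, 29453107 to 29535867, minus strand). It was at 223, 241 and 256 CPM in Fsk A, B and C, against 120, 124 and 128 CPM in Ctrl A, B and C. The lowest Fsk library was far above the highest Ctrl library, and the ratio was 1.94, a log2 fold change of 0.95 with SE 0.0508 (edgeR adjusted p = 2.65e-11). Of the 27 tested members Rspo3 had the highest level per kilobase with Fsk, 100 ± 7.04 CPM, and stood at 51.9 ± 1.61 CPM with Ctrl, where Lrp5 (61.0 ± 0.989) and Dkk3 (57.4 ± 1.01) were higher. That level exceeded the level of 94.6% of tested genes with Fsk and 85.5% with Ctrl. Its exons overlap Gm48159 on the opposite strand over 13.1% of their bases, and 88.4% of its 50-base stretches occur in no other gene. Rspo1 and Rspo2 reached at most 1 and 0.5 counts, and Rspo4 was at 0 in all 6 libraries, with the same limits as for Wif1.

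The receptors for R-spondins did not rise with it. Lgr4 was at 14.4, 14.4 and 13.6 CPM in Fsk A, B and C, against 20.9, 20.6 and 20.1 CPM in Ctrl A, B and C, tight groups well apart, with a log2 fold change of -0.54 with SE 0.0952 (edgeR adjusted p = 1.18e-04). Lgr6 was at 3.37, 2.68 and 1.93 CPM in Fsk A, B and C, against 3.62, 3.65 and 4.06 CPM in Ctrl A, B and C, a log2 fold change of -0.49 that did not pass (edgeR adjusted p = 0.0797). Fsk A lay nearest to the Ctrl range for Lgr6, and without Fsk A the gene passed at a log2 fold change of -0.67 (edgeR adjusted p = 0.0288). Lgr5, a stem cell marker and β-catenin target in the gut, reached at most 3 counts. The ligase gene Znrf3 was at 15.4 ± 2.90 CPM with Fsk and 15.3 ± 1.54 CPM with Ctrl (log2 fold change 0.00, SE 0.131, edgeR adjusted p = 0.988), and Rnf43 was not tested, with at most 6.5 counts.

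Among the nuclear and feedback members, Tcf7, a DNA-binding partner of β-catenin (chromosome 11, 52252283 to 52283014, minus strand), was at 21.2, 16.9 and 20.5 CPM in Fsk A, B and C, against 11.2, 12.9 and 14.4 CPM in Ctrl A, B and C. The groups did not overlap and the log2 fold change was 0.61 (SE 0.119, edgeR adjusted p = 3.49e-04), a call lost when library size entered the fit. Axin2, a feedback target much used as a readout of β-catenin signalling, was low, at 2.73, 2 and 1.40 CPM in Fsk A, B and C, against 2.03, 1.11 and 1.38 CPM in Ctrl A, B and C. Its groups overlapped, the log2 fold change was 0.41 with an SE of 0.321 (edgeR adjusted p = 0.303), and its sign turned when library size entered the fit. Lef1, another partner of β-catenin, reached at most 3 counts.

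**Figure D3:**
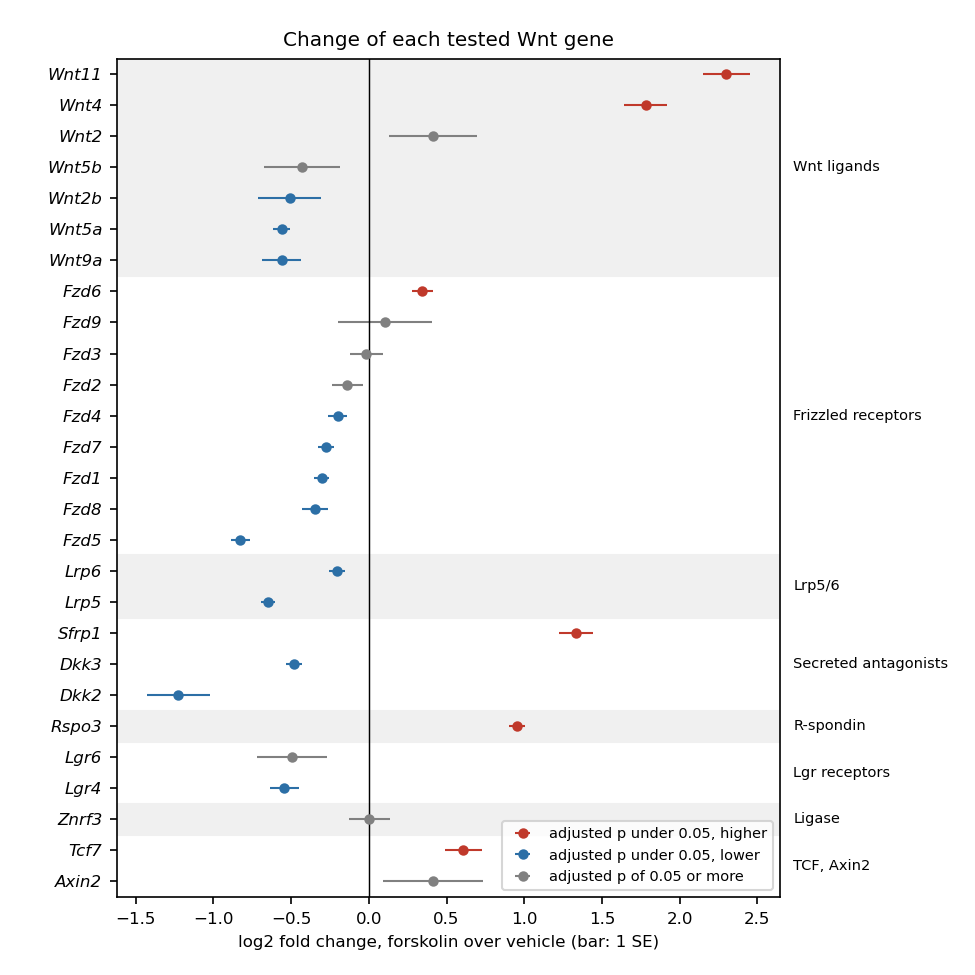
Log2 fold change of each tested Wnt gene, forskolin over vehicle, with bars of 1 SE, grouped by role (red: passed and higher, blue: passed and lower, grey: adjusted p of 0.05 or more). Values run from 2.30 for Wnt11 to -1.23 for Dkk2, and 5 of 9 Frizzled genes lie to the left of 0 in blue beside Fzd6 in red. Over all tested genes 24.8% passed and were higher and 25.1% passed and were lower.

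Other genes of the pathway were counted from 4 lists holding 122 gene symbols, of which Ccn4 is a second symbol of Wisp1. The list of targets of β-catenin signalling had the lowest median log2 fold change, -0.33 over 26 tested genes, of which 4 rose and 13 fell (65.4% called, beside 49.9% of all tested genes). Its members with the smallest adjusted p were Wisp1, a matricellular protein gene, at 30.7 CPM with Fsk and 139 CPM with Ctrl (log2 fold change -2.19, edgeR adjusted p = 5.44e-13), Lbh, a transcription cofactor gene, at 205 CPM with Fsk and 401 CPM with Ctrl (log2 fold change -0.96, edgeR adjusted p = 2.65e-11), and Glul, glutamine synthetase, at 93.9 CPM with Fsk and 166 CPM with Ctrl (log2 fold change -0.82, edgeR adjusted p = 1.74e-10). These genes answer to other signals as well, and their levels do not measure β-catenin activity.

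In the list of Wnt secretion and other extracellular regulators, 23 of 33 genes were tested, of which 6 rose and 10 fell, with a median log2 fold change of -0.09. The 3 genes with the smallest adjusted p were all lower, and the next, the glypican gene Gpc1, was higher, at 117 CPM with Fsk and 69.2 CPM with Ctrl (log2 fold change 0.76, edgeR adjusted p = 2.88e-10), named after its values were seen. The sulfatase gene Sulf1 was at 90.9 CPM with Fsk and 213 CPM with Ctrl (log2 fold change -1.23, edgeR adjusted p = 3.80e-13). Its relative Sulf2 was at 38.7 CPM with Fsk and 100.3 CPM with Ctrl (log2 fold change -1.38, edgeR adjusted p = 2.14e-11). The glypican gene Gpc4 was at 179 CPM with Fsk and 326 CPM with Ctrl (log2 fold change -0.87, edgeR adjusted p = 3.39e-11).

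Of 38 genes of intracellular transduction, 37 were tested, of which 7 rose and 13 fell, with a median log2 fold change of -0.02. Here Amer1, a scaffold of the β-catenin destruction complex, was at 18.8 CPM with Fsk and 29.8 CPM with Ctrl (log2 fold change -0.66, edgeR adjusted p = 3.29e-06). Tnks, tankyrase, which marks Axin for degradation, was at 135 CPM with Fsk and 177 CPM with Ctrl (log2 fold change -0.38, edgeR adjusted p = 1.16e-06). Cxxc5, a binder of Dishevelled, was at 27.8 CPM with Fsk and 14.7 CPM with Ctrl (log2 fold change 0.91, edgeR adjusted p = 3.90e-07). The list of polarity genes and alternative co-receptors had 17 of 20 genes tested, of which 3 rose and 5 fell, with a median of 0.01. Prickle2 was at 95.4 CPM with Fsk and 122 CPM with Ctrl (log2 fold change -0.35, edgeR adjusted p = 4.59e-06), Daam2 at 11.6 CPM with Fsk and 19.7 CPM with Ctrl (log2 fold change -0.77, edgeR adjusted p = 4.28e-05) and Invs, inversin, at 31.6 CPM with Fsk and 21.8 CPM with Ctrl (log2 fold change 0.53, edgeR adjusted p = 2.73e-05). The share of genes called was 69.6% in the extracellular list, 54.1% in the transduction list and 47.1% in the polarity list, beside 49.9% of all tested genes (24.8% higher and 25.1% lower), so that the transduction and polarity lists lay near that share.

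**Figure D4:**
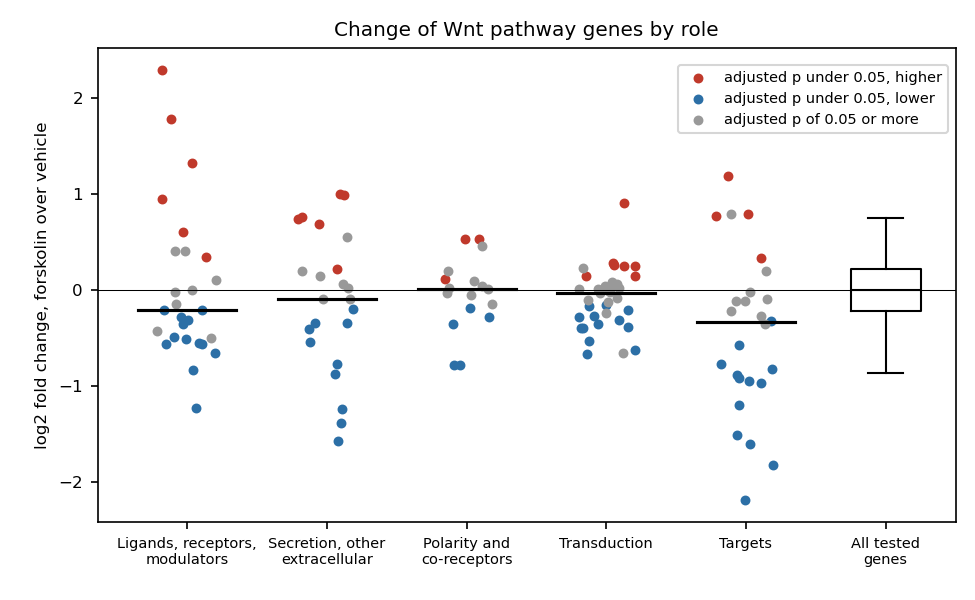
Log2 fold change, forskolin over vehicle, of the 27 tested Wnt genes (left) and of the tested genes of the 4 other pathway lists, 1 point per gene, with black lines at the medians; the box on the right gives the quartiles and median of all 13357 tested genes, with whiskers at the percentiles 5 and 95. Medians are -0.20, -0.09, 0.01, -0.02 and -0.33 from left to right, and 0.01 for all tested genes.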

How the data were processed

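The authors deposited estimated counts over exons for each gene, without normalization, with 1 RefSeq transcript per symbol and its exon length. The mouse build mm10 and the tools STAR and HOMER are named in the submitters' processing notes, with versions and settings not given in the sources used here. Values are multiples of 0.5 (31.8% are not whole, for a reason not stated) and were rounded to whole numbers before any test.

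With edgeR 4.0.16 in R 4.3.3, filterByExpr (minimum count 10, minimum total 15) kept 13357 genes. Libraries were scaled by TMM, and Fsk was compared with Ctrl by the two-sided quasi-likelihood test with group as the only term, adjusted by Benjamini-Hochberg over all genes (threshold 0.05). The fit was also run on simulated counts in which far fewer genes changed than passed here. That run does not test the scaling under so broad a change. CPM is on TMM-scaled library sizes. Per-kilobase levels divide by the deposited exon length. Overlaps and shared 50-base stretches come from GENCODE M21 (GRCm38), and promoter windows from RefSeq.

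The members, the pathway lists and the marker lists were chosen with earlier results of these data known. Every member is named. Of each pathway list the 3 genes with the smallest adjusted p are named, and Gpc1 and Frzb were added after their values were seen. Other scalings, filters, tests (DESeq2 1.42.0 among them) and each library left out were tried.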

Additional observations from a re-analysis of the deposited data

How the results depend on the processing

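Tested against a 1.5-fold change, 1000 genes passed, members lower numbered 2 (Fzd5 and Dkk2), members higher 4 (Wnt11, Wnt4, Sfrp1 and Rspo3), and the genes of the other pathway lists 2 higher and 11 lower; this test asks for a larger change by construction. With library size as a covariate 4297 genes passed in place of 6668, and Wnt2b, Tcf7, Fzd4 and Fzd8 no longer did; the cause was not tested, and the Fsk libraries were the shallower ones. DESeq2 and library size alone each lost Wnt2b only among the 19 members called, and the same held without Fsk A, Fsk B, Fsk C, Ctrl A or Ctrl C, while Fzd4 was lost without Ctrl B. Without Fsk A, Lgr6 and Sfrp2 (log2 fold change 1.48) were gained; Sfrp2 did not pass in the other settings that tested it, no filter, DESeq2 and each Ctrl library left out. With 1 library left out, 5640 to 6800 genes passed, 6 to 7 members were higher and 12 to 13 lower.

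Over the 15 alternatives the log2 fold change of Wnt11 was 2.14 to 2.38, of Wnt4 1.62 to 2.19, of Sfrp1 1.26 to 1.41, of Rspo3 0.91 to 1.01, of Fzd5 -0.85 to -0.78 and of Dkk2 -1.50 to -0.98, and each of these 6 passed in all 15. The sign turned only for members that did not pass: Axin2 to -0.0916 with library size as a covariate, Fzd3 to 0.0274 with library size alone and between -0.0809 and 0.0281 with 1 library left out, Fzd9 to between -0.0214 and 0.331 and Znrf3 to between -0.109 and 0.151 with 1 library left out, and Znrf3 to -0.0018 with DESeq2 size factors; the cause was not tested.

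Samples sharing a replicate letter hardly deviated together (correlations of their deviations across genes 0.0291, 0.0203 and 0.0377), although each correlated best with its own letter. With the letter as a replicate block 6675 genes passed, with 6 members higher and 13 lower, the same 19 members, and Znrf3 was at -0.0010. Depth limits the 25 members that were not tested, and arms with 1 library fewer were assumed to vary alike.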
